A study of Mus musculus with 8 samples.

Results

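Apelin (Apln) and its receptor (Aplnr, also called APJ) were followed in mouse hearts with and without food. All non-control probes whose accession mapped to either gene were taken, 3 for Apln and 2 for Aplnr out of 41174, and the genes were 2 of the 18217 genes with a RefSeq symbol on the array. Messenger RNA had been measured in whole hearts of 9-week-old male C57BL/6J mice, an inbred laboratory strain, kept on CE-2 pellets, a standard chow. The 4 satiated samples came from mice with no treatment, and the 4 fasted samples from mice that had water but no food for 2 days. Each sample was hybridised to its own one-colour Agilent whole mouse genome array and is called a heart below. The labels number the samples without stating that each came from a separate mouse, so p-values measure only the spread between these samples, which may be technical. Both genes were chosen by their measured difference between fasted and satiated hearts, so that difference is described below without a test.

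Apelin is a small secreted peptide that is cut from a longer precursor. It binds Aplnr, a G protein-coupled receptor found on blood vessel endothelium and on heart muscle cells, and the pair is known for widening vessels and strengthening the heartbeat. A second ligand, Apela, acts on the same receptor, and no probe was matched to it here.

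By the brightest probe of each gene, Apln was 7.29-fold lower in fasted than in satiated hearts (log2 difference -2.87 ± 0.25, limma's SE, 4 hearts per group) and Aplnr was 9.40-fold lower (-3.23 ± 0.25). On these probes each of the 4 fasted hearts lay below each satiated heart for both the ligand and its receptor. Among 20203 tested genes and unnamed probes, Aplnr had the 11th largest decrease and Apln the 21st, while the median difference over all of them was 0.00. Of all those tested, 20.2% were called at an adjusted p under 0.05 (limma, Benjamini-Hochberg), 10.3% as lower and 9.82% as higher in fasted hearts, and for 14.3% each fasted heart lay below each satiated one. The ranks rest on the contrast by which the genes were chosen, so nothing is read from them.

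**Figure D1:**
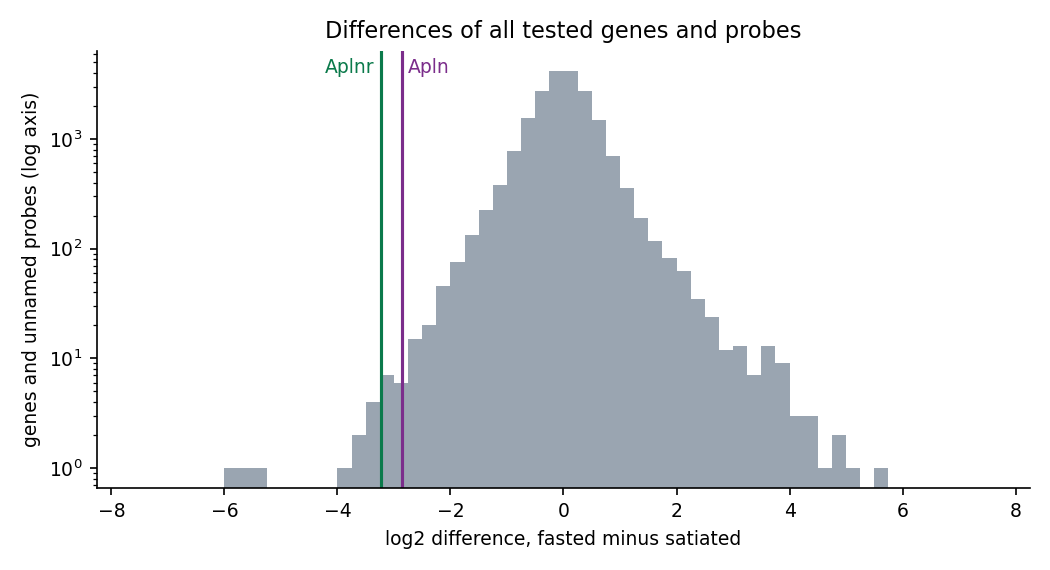
Number of tested genes and unnamed probes (y axis, log scale) by log2 difference, fasted minus satiated (x axis, bins of equal width), with vertical lines at Apln and Aplnr. Both lines lie in the far left tail, at -2.87 and -3.23, on the contrast by which the genes were chosen.

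The arrays lay on 2 slides, each with 2 hearts of either group: replicates 1 and 2 on slide 1 and replicates 3 and 4 on slide 2. Between 54.4% and 68.9% of probes were well above background, with the lower shares on slide 2, and 0 spots were saturated. The number of genes and probes called, 4073, was 2520 without satiated replicate 2, 2495 without satiated replicate 4 and 6486 when replicate number was fitted as a block. The arrays, 4 per group, limit the precision of each value.

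The stretch just before the transcription start of Apln is shown because it is where factors of the hypoxia and Notch lists described further on could bind. It is the 250 bases at chrX:48034854-48035103, minus strand, of RefSeq's promoter table (assembly GRCm38.p6), with capitals marking E-box matches, CANNTG, the motif read by basic helix-loop-helix factors.
Apln: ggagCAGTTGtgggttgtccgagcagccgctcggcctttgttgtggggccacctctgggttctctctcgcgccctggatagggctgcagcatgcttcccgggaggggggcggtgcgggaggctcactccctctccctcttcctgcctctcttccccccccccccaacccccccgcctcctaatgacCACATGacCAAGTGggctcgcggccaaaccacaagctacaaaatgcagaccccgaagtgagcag
The stretch was 65.2% G and C. Searched on both strands, it held 3 E-boxes, a motif found in 66.2% of the 32851 windows of this length in the table. It held 0 matches to the cores read by hypoxia-inducible factors, ACGTG and GCGTG, of which at least 1 lay in 38.6% of all windows, and 0 matches to TGGGAA, the core read by the Notch partner Rbpj, found in 21.6%. The motifs searched do not overlap one another in this stretch. Only these 250 bases were searched, so matches elsewhere around the gene would not be seen. An Aplnr window was not used here.

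Apln was read by 3 probes. On the brightest, A_52_P62284, the signal in satiated replicates 1 to 4 was 2.21, 3.18, 1.60 and 2.49 times the 75th percentile of its array, and in fasted replicates 1 to 4 it was 0.359, 0.417, 0.249 and 0.267 times that percentile. All 8 arrays measured it well above background, and the lowest satiated heart was 3.84-fold above the highest fasted heart. On the log2 scale the satiated mean was 1.20 ± 0.41 and the fasted mean -1.66 ± 0.35 (SD, n = 4 each). The fold was 6.86 on slide 1 and 7.74 on slide 2.

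The second Apln probe, A_51_P209327, showed a larger fold. It was brighter than A_52_P62284 in each satiated heart and dimmer in each fasted heart. The choice of A_52_P62284 as the brightest thus rested on its fasted signal. Its signal in satiated replicates 1 to 4 was 2.56, 3.47, 1.91 and 2.69 times the 75th percentile. In fasted replicates 1 to 4 it was 0.0928, 0.115, 0.0226 and 0.0781 times that percentile, and fasted replicate 3 was not well above background. The groups again did not overlap. With fasted replicate 3 raised to the lowest signal well above background on its array, the probe was 31.8-fold lower in fasted hearts. This is not a lower bound, because other settings gave smaller folds. The fold was 28.9 on slide 1, where all arrays measured it, 27.6 without fasted replicate 3, and 13.5 with normexp background correction, whose added offset of 50 raises dim signals. The direction was the same on both Apln probes.

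The third Apln probe, A_51_P133345, was well above background on 1 array only, that of satiated replicate 2. Its signal ranged from 0.00963 to 0.0227 times the 75th percentile in satiated hearts and from 0.00433 to 0.0116 in fasted hearts, and the ranges overlapped. No fold is given for it.

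Aplnr was read by 2 probes. On the brighter, A_52_P97572, satiated replicates 1 to 4 had 1.12, 1.86, 0.941 and 1.52 times the 75th percentile, and fasted replicates 1 to 4 had 0.136, 0.193, 0.126 and 0.115 times that percentile. All 8 arrays measured it well above background, and the lowest satiated heart was 4.86-fold above the highest fasted heart. The log2 mean was 0.39 ± 0.44 in satiated and -2.84 ± 0.33 in fasted hearts (SD, n = 4 each). The fold was 8.88 on slide 1 and 9.94 on slide 2, and 5.22 with normexp background correction.

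The dim Aplnr probe, A_51_P299055, gave a much smaller difference. Only the 4 arrays of slide 1 measured it well above background. Satiated replicates 1 to 4 had 0.0562, 0.0614, 0.0467 and 0.0569 times the 75th percentile, and fasted replicates 1 to 4 had 0.0273, 0.0427, 0.0390 and 0.0328 times it. Each fasted heart was below each satiated heart, the nearest pair being 1.09-fold apart. The fold was 1.72 on slide 1 and 1.06 with normexp. It was 1.34 over both slides with dim fasted arrays raised to their lowest signal well above background. The satiated arrays of slide 2 were dim too and were left as read, so 1.34 is not a lower bound. When the kept probes of a gene were averaged instead, arrays not well above background included, Apln was 16.9-fold and Aplnr 3.85-fold lower.

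**Figure D2:**
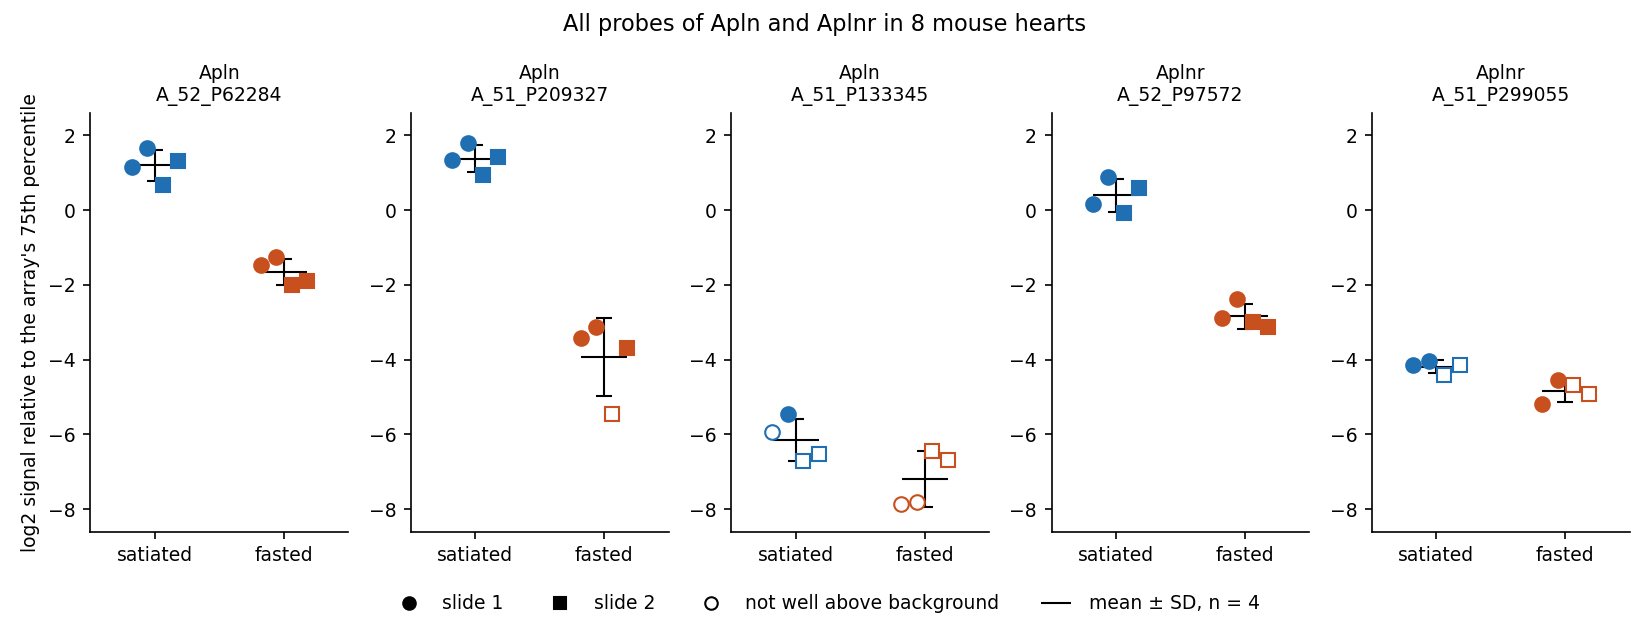
Log2 signal relative to the array's 75th percentile (y axis) for each probe of Apln and Aplnr in satiated and fasted hearts; circles are slide 1, squares slide 2, open symbols not well above background, and bars the mean ± SD of 4 hearts. The groups lie apart on A_52_P62284, A_51_P209327 and A_52_P97572, lie close together on A_51_P299055 and overlap on A_51_P133345.

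Within a group the hearts differed from one another. Satiated replicate 2 was the highest satiated heart for Apln and for Aplnr, with 3.18 and 1.86 times the 75th percentile on the brightest probes, and satiated replicate 3 was the lowest, with 1.60 and 0.941. Among fasted hearts replicate 2 was the highest for both, with 0.417 and 0.193. The lowest fasted heart was replicate 3 for Apln and replicate 4 for Aplnr. Replicate 2 was also the highest of its group, satiated and fasted, for each of the 5 other genes closest to the pair, which are given next. Those genes were picked for closeness to the pair over these same hearts, so nothing is read from the shared order.

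Likeness to other genes was measured as the root mean square, over the 8 hearts, of the difference between the log2 values of a pair of genes after each gene's own mean was taken off. Among 11766 named genes well above background on all 8 arrays, Aplnr was the closest to Apln and Apln the closest to Aplnr, at 0.22. The median over all these genes was 1.48 from Apln and 1.66 from Aplnr. Next came Tafa3, which encodes a secreted protein (0.25 from Apln, 0.32 from Aplnr), and the potassium channel subunit Kcne1 (0.29 and 0.34). Cux2, a homeobox transcription factor (0.31), and Cenpf, a kinetochore protein (0.31), followed for Apln, and Cenpf (0.36) and the membrane protein Lingo3 (0.44) for Aplnr. The measure takes in the difference between satiated and fasted hearts, for which the pair was chosen, so it is a description of these arrays.

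The mutual place of the pair moved with the hearts used. Apln was the closest gene to Aplnr when any 1 of the 8 hearts was left out, whereas Aplnr was the closest to Apln in 6 of those 8 cases. It was second to Col3a1 without fasted replicate 2 and second to Tafa3 without fasted replicate 3. Within slide 1 alone Aplnr was in place 5 from Apln, and within slide 2 alone in place 2, behind the lipid droplet protein Plin1, each over 4 hearts.

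**Figure D3:**
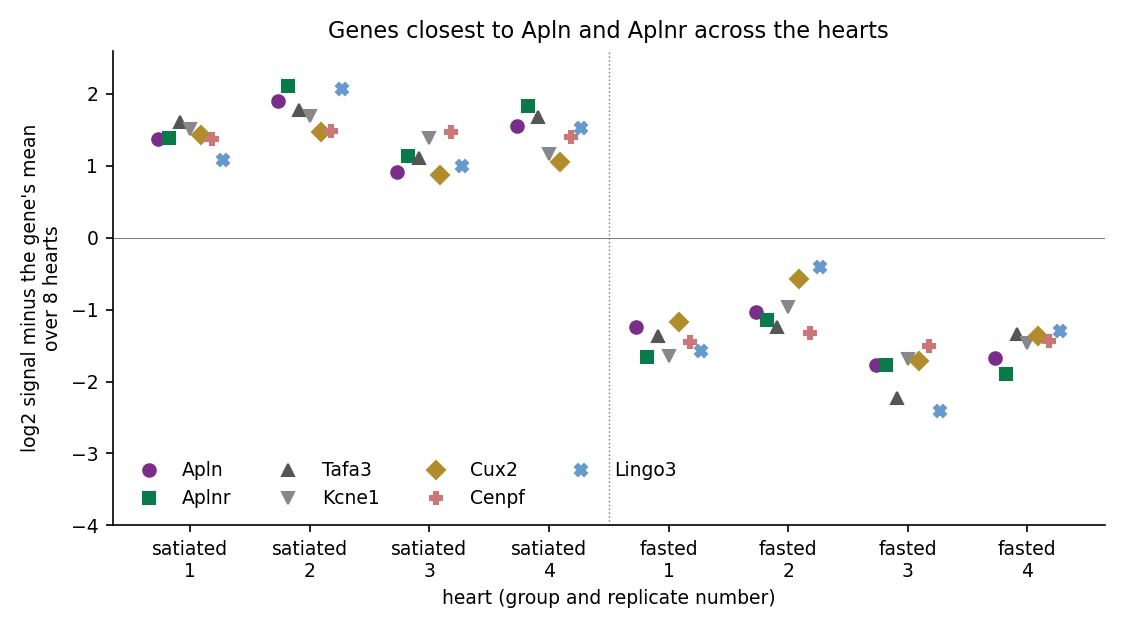
Log2 signal minus each gene's mean over the 8 hearts (y axis) for Apln, Aplnr and the genes closest to them, by heart (x axis). All 7 genes lie above 0 in the satiated and below 0 in the fasted hearts, and each of the 7 is highest in replicate 2 of either group. Genes other than the pair were picked for closeness over these same hearts.

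Of 107 genes in 8 pathway lists, 100 were tested, 13 rose and 15 fell (13% and 15%, against 9.82% and 10.3% of all genes and probes tested; limma, adjusted p under 0.05), and their median difference was 0.02. Without satiated replicate 4, 7 rose and 12 fell, without the filter on dim probes 6 rose and 10 fell, and when replicate number was fitted as a block 21 rose and 21 fell. The shares of all genes and probes tested, 9.82% higher and 10.3% lower, are the background for each list count below. Values after gene names below are log2 differences, fasted minus satiated, ± limma's SE (n = 4 and 4). Adjusted p-values, where given, are limma's after Benjamini-Hochberg.

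Furin, a protease that cuts the apelin precursor, rose (0.59 ± 0.16, adjusted p = 0.0374 in limma). Furin signal was 8.50, 9.05, 8.94 and 7.29 times the 75th percentile in satiated replicates 1 to 4 and 12.5, 13.5, 15.6 and 9.78 times in fasted replicates 1 to 4. Each fasted heart lay above each satiated heart. The Furin call was lost without any array but that of fasted replicate 4, with limma's adjusted p of 0.0648 to 0.104, and without the filter on dim probes (adjusted p = 0.103). Mme, or neprilysin, which cleaves apelin, did not pass (-0.09 ± 0.23), and Klkb1, plasma kallikrein, was well above background on 0 arrays.

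Among G proteins, receptor kinases and arrestins, 1 of 11 tested genes rose and 1 fell, with a median of 0.03. Gnai2, an alpha subunit of the inhibitory G proteins through which Aplnr signals, fell (-0.66 ± 0.13, adjusted p = 0.0126 in limma). Grk5, a kinase that phosphorylates activated receptors, rose (0.85 ± 0.17, adjusted p = 0.0104). The other 9 genes of the list, arrestin Arrb1 among them, did not pass, and in the fit blocked by replicate number 2 rose.

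Of 17 tested effectors downstream of the receptor, 2 rose and 1 fell, with a median of -0.03. The transcription factor Mef2d (0.68 ± 0.19) and the histone deacetylase Hdac5 (0.54 ± 0.16) rose, and the transcription factor Mef2c fell (-0.36 ± 0.11). Their relatives on the list, Mef2a (-0.03 ± 0.18) and Hdac4 (-0.09 ± 0.24), named after their values were seen, did not pass. All 3 calls were lost when most single hearts were left out. Mef2d kept its call only without fasted replicate 2, Mef2c only without fasted replicate 3 and Hdac5 only without satiated replicate 2 or fasted replicate 4, with limma's adjusted p up to 0.0906, 0.119 and 0.108. Mef2c also missed the threshold with median scaling (adjusted p = 0.0685) and normexp (adjusted p = 0.0624), and Hdac5 with quantile normalization (adjusted p = 0.0698). Without the filter on dim probes the adjusted p was 0.0955 for Mef2d, 0.117 for Hdac5 and 0.152 for Mef2c in limma. In the fit blocked by replicate number 2 effectors rose and 3 fell.

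Of 5 tested receptors related to Aplnr, 0 were called in limma and 0 had an unadjusted p under 0.05. Among all 20203 genes and probes tested, 6832 had such an unadjusted p. The smallest p belonged to the chemokine receptor Cxcr4, at 0.70 ± 0.33 (adjusted p = 0.176). The median of the list was 0.05.

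Apln is known as a gene induced by low oxygen through hypoxia-inducible factors (HIF). Of 8 tested HIF pathway components, 1 fell and 0 rose, with a median of 0.11. It was Egln3, an oxygen-sensing prolyl hydroxylase that is also a HIF target (-1.28 ± 0.17, adjusted p = 0.00264 in limma). Hif1a, the oxygen-regulated subunit, chosen for mention after its value was seen, had a difference of -0.04 ± 0.20. When replicate number was fitted as a block 2 of the 8 rose and 2 fell.

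HIF target genes changed in both directions. Of 24 tested, 5 rose and 9 fell, and the median was -0.14. The shares were 20.8% and 37.5%, against 9.82% and 10.3% of all genes and probes tested. Bnip3, a mitochondrial receptor for autophagy, rose (2.52 ± 0.24). P4ha1, a collagen prolyl hydroxylase (-1.22 ± 0.16), and Ak4, a mitochondrial adenylate kinase (-1.62 ± 0.22), fell, as did Egln3. Without satiated replicate 4, 3 rose and 8 fell, without the filter on dim probes 3 rose and 7 fell, and when replicate number was fitted as a block 8 rose and 10 fell.

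Apelin is 1 of several peptides that act on vessels. Of 18 tested genes for other vasoactive peptides and their receptors 3 rose and 1 fell, with a median of 0.20. Nppb, the precursor of B-type natriuretic peptide (1.53 ± 0.26), Agt, the precursor of angiotensin (1.33 ± 0.21), and Ece1, an enzyme that matures endothelin (0.57 ± 0.12), rose. Calcrl, the receptor component for adrenomedullin and CGRP, fell (-0.60 ± 0.14), and its call was lost without satiated replicate 1 or 3, with limma's adjusted p up to 0.0557. Without the filter on dim probes the calls of Calcrl (adjusted p = 0.0656) and Ece1 (adjusted p = 0.0541) were lost in limma. When replicate number was fitted as a block 5 rose and 2 fell.

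Apln is also known as a marker of endothelial tip cells, which lead growing vessel sprouts and are held in check by Notch. Of 19 tested tip cell and Notch genes 3 fell and 0 rose, with a median of -0.22. Esm1, a proteoglycan secreted by tip cells, had the largest decrease of the list (-2.16 ± 0.36, adjusted p = 0.00544 in limma). It was well above background on 4 satiated but only 3 fasted arrays, and its difference was -1.38 with normexp. Its signal in satiated replicates 1 to 4 was 0.432, 0.832, 0.400 and 0.588 times the 75th percentile and in fasted replicates 1 to 4 it was 0.149, 0.110, 0.0664 and 0.193 times it, with no overlap. Satiated replicate 2 was the highest satiated heart, as for Apln and Aplnr, whereas the highest fasted heart was replicate 4 for Esm1 and replicate 2 for Apln and Aplnr. Unc5b, a netrin receptor (-0.63 ± 0.13), and Cd34, a sialomucin of endothelial and progenitor cells (-0.73 ± 0.17), fell too. The Cd34 call was lost without satiated replicate 2, 3 or 4, with limma's adjusted p up to 0.0622, and without the filter on dim probes (adjusted p = 0.0617). In the fit blocked by replicate number 4 genes of the list fell.

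**Figure D4:**
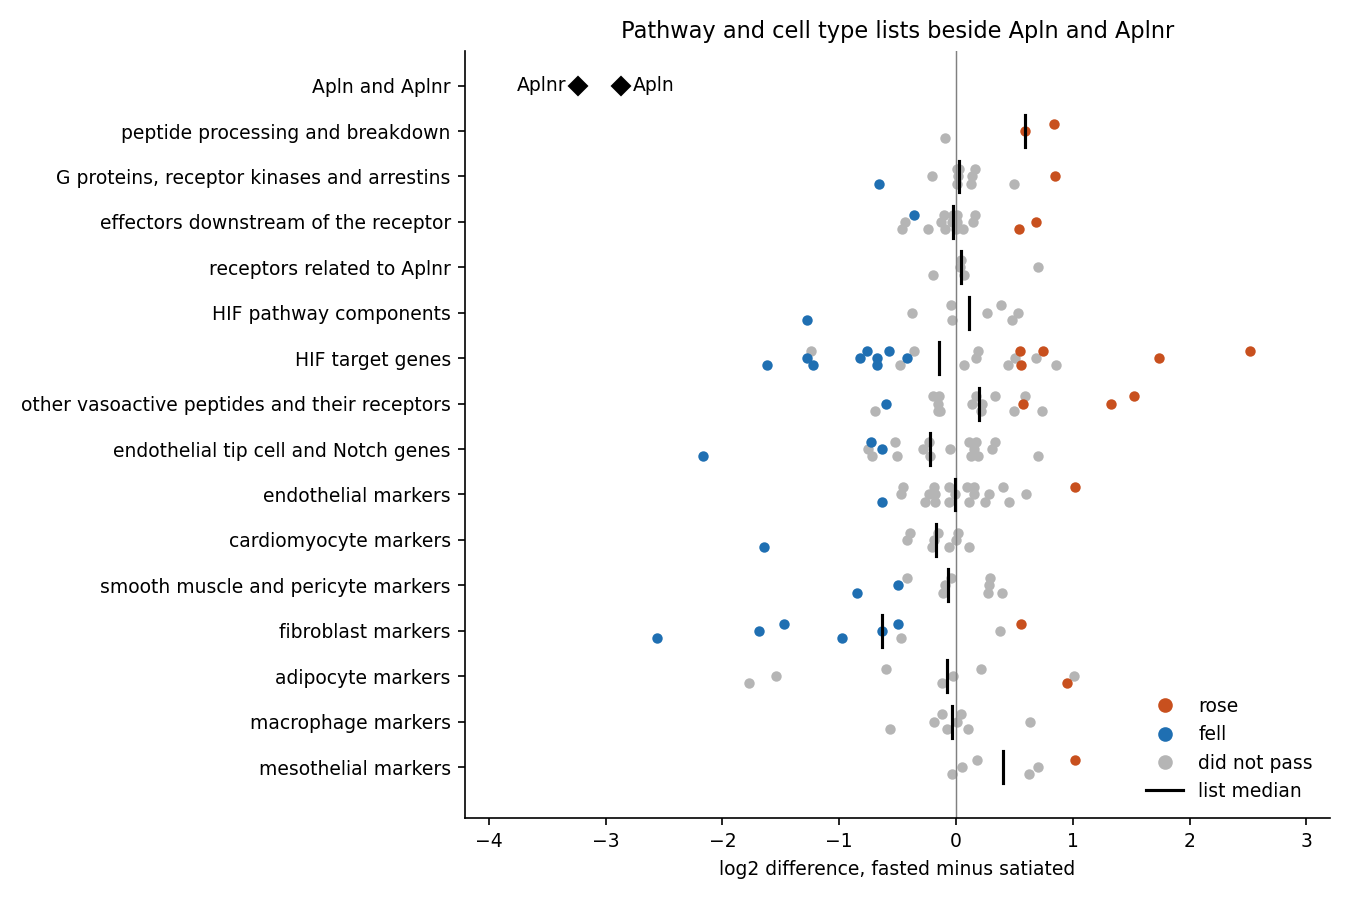
Log2 difference, fasted minus satiated (x axis), of Apln and Aplnr (top row, diamonds) and of each tested gene of the 15 lists; orange dots rose, blue dots fell, grey dots did not pass at an adjusted p of 0.05, and black bars are list medians. Each list gene lies to the right of Apln and Aplnr, and the list medians run from -0.63 to 0.59. The pair was chosen by its difference on this contrast, so nothing is read from its place.

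Endothelial cells make Apln and carry its receptor. Of 21 tested endothelial markers 1 rose and 1 fell, with a median of 0.00. That was 4.76% each, against 9.82% and 10.3% of all genes and probes tested. All but 1 of the markers were well above background on all 8 arrays. Sox17, an arterial transcription factor, rose (1.02 ± 0.23), and Cd93, an endothelial lectin, fell (-0.63 ± 0.18). The Cd93 call was lost without any array but that of satiated replicate 3 (limma's adjusted p up to 0.108) and with quantile normalization (adjusted p = 0.0572) or no filter on dim probes (adjusted p = 0.105). When replicate number was fitted as a block 3 markers rose and 1 fell. The summed signal of the 21 markers was 203 to 230 times the 75th percentile in satiated and 200 to 252 times in fasted hearts.

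Set against the mean of these markers in each heart, Apln was 7.48-fold and Aplnr 9.64-fold lower in fasted hearts, folds no smaller than without that reference. The mean itself ranged from 2.30 to 2.41 on the log2 scale in satiated hearts and from 2.32 to 2.49 in fasted hearts, with overlap. In whole hearts, fewer cells of a type and less RNA per cell cannot be told apart.

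**Figure D5:**
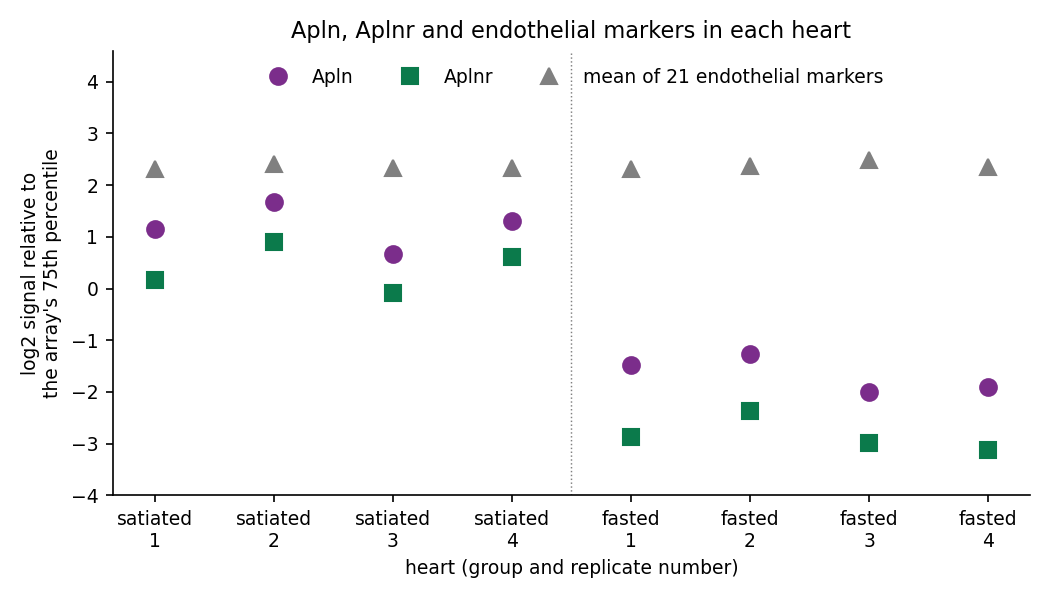
Log2 signal relative to the array's 75th percentile (y axis) of Apln, Aplnr and the mean of 21 endothelial markers in each heart (x axis). The marker mean stays between 2.30 and 2.49, while Apln and Aplnr are lower in the 4 fasted hearts.

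Other cell type markers gave these counts, those of the main fit to be set against 9.82% higher and 10.3% lower among all genes and probes tested. Of 10 cardiomyocyte markers, all well above background on all 8 arrays, 1 fell, the cardiac actin Actc1 (-1.64 ± 0.13), with summed signals of 2748 to 3598 times the 75th percentile in satiated and 2376 to 3511 times in fasted hearts. Without fasted replicate 2 or 3, 2 of these markers fell. Of 9 fibroblast markers 1 rose and 6 fell (11.1% and 66.7%), with a median of -0.63. The collagen chain Col3a1 (-2.56 ± 0.40) and the proteoglycan Lum (-1.48 ± 0.17) were among those that fell. The summed signal was 257 to 291 times the percentile in satiated and 245 to 297 times in fasted hearts. In these sums Dcn alone gave 141 to 158 times the percentile in satiated and 201 to 260 times in fasted hearts. The sums thus do not stand for the list as a whole. The proteoglycan Dcn rose (0.56 ± 0.12) and the transcription factor Tcf21 fell (-0.63 ± 0.14), and both calls were lost without satiated replicate 2 (limma's adjusted p = 0.0505 and 0.0509) and without the filter on dim probes (0.0584 and 0.0573). The number of fibroblast markers that fell was 2 without satiated replicate 2, 3 without satiated replicate 4, 4 with median scaling and 2 without the filter on dim probes.

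Of 10 smooth muscle and pericyte markers 2 fell, the pericyte proteoglycan Cspg4 (-0.85 ± 0.15) and smooth muscle actin Acta2 (-0.50 ± 0.13), with sums of 125 to 146 in satiated and 115 to 143 times the percentile in fasted hearts. Without fasted replicate 3, 3 of these markers fell. The Acta2 call held in limma only without fasted replicate 3 or satiated replicate 1, and missed the threshold otherwise (adjusted p up to 0.0810) and with median scaling (0.0655) or no filter on dim probes (0.0939).

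Apln is also made by fat cells, which whole hearts can carry. Of 8 tested adipocyte markers 1 rose, the lipase Lipe (0.95 ± 0.18), which muscle expresses too, and 0 fell; the sums overlapped, at 40.4 to 119 in satiated and 54.9 to 93.5 times the percentile in fasted hearts. Lep, the leptin gene, was well above background on 1 array. The other markers spread widely, and 3 named after their values were seen had an unadjusted p under 0.05 in limma without passing: the adipokine Retn (-1.77 ± 0.62, adjusted p = 0.0824, groups not overlapping), Plin1 (-1.54 ± 0.59, adjusted p = 0.103) and Thrsp (-0.60 ± 0.24, adjusted p = 0.117). The list's median was -0.07 over both slides, 0.96 on slide 1 and -1.10 on slide 2. Without satiated replicate 1, 1 adipocyte marker fell. Of 8 macrophage markers 0 were called in limma, and the sums were 27.1 to 29.5 in satiated and 24.3 to 33.4 in fasted hearts. An unadjusted p under 0.05 was found in limma for 1 of them, Cd163 (0.63 ± 0.21, adjusted p = 0.0659). For this count and that of the adipocyte markers the background is 6832 of all 20203 genes and probes tested. Of 6 mesothelial markers 1 rose, Upk1b (1.02 ± 0.21), and the sums were higher in fasted hearts, 7.73 to 11.5 against 4.23 to 7.67. The other 5 did not pass, among them the brightest, Msln (0.71 ± 0.25, limma's adjusted p = 0.0835). Its mean log2 signal was 1.92 in satiated and 2.62 in fasted hearts. The mesothelial sums thus do not stand for that list as a whole. Without satiated replicate 1 or fasted replicate 3, 2 mesothelial markers rose. In the fit blocked by replicate number 2 cardiomyocyte markers fell, 2 fibroblast markers rose and 7 fell, 1 smooth muscle and pericyte marker rose and 3 fell, 1 macrophage marker fell and 2 mesothelial markers rose. The part of these cell types in the decrease of Apln and Aplnr was not tested.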

How the data were processed

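The authors deposited Agilent Feature Extraction tables whose spot intensities are background-subtracted within each array and not normalized between arrays, per the file headers (version 10.5.1.1 on slide 1 and 10.7.3.1 on slide 2; the submitters' processing notes name version 9.1). The authors' deposited series table gives linear ratios per array, used as an alternative; how those ratios were made is not stated in the labels or headers. After a constant per probe, 99.7% of the probes followed the intensities by 1 factor in each array (within 0.01, log2); column medians ran from 0.860 to 1.02, and the origin of these factors and the divisor of dim probes stay unknown.

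Log2 intensities minus each array's 75th percentile were used, without control and outlier spots. A probe was kept where 4 or more of the 8 arrays read it well above background (26480 of 41174). Probes were named through RefSeq accessions of GRCm38.p6 (26690 probes with a symbol). Each gene was read by its brightest kept probe, by mean log2 signal over all 8 arrays. Groups were compared with limma 3.58.1 in R 4.3.3, two-sided, at an adjusted p under 0.05; the fit was tested on simulated data. Alternatives were other scalings and background corrections (normexp on median rather than the planned mean signals), probe filters and rules, blocks, single slides and leaving out each heart. Figures used matplotlib 3.10.9 in Python 3.11.15. Member genes, lists and tests were chosen with earlier results of these data known. Named genes were all probes of the members, all peptide-processing genes, up to 4 called genes with the smallest p per list, or the single smallest p, and the 5 genes closest to each member. The values of 1 list gene are not reported here.

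Deviations from the group mean were correlated, across genes, between the satiated and the fasted heart of the same number. The r was 0.44, 0.47, 0.33 and 0.49 for replicates 1 to 4. Hearts of the same number also shared a slide. The replicate block was run as an alternative and is given where it moves a count. Slides were told apart by the array barcodes. Numbers 1 and 2 lay on slide 1 and numbers 3 and 4 on slide 2. With slide means removed the correlation was -0.11 and 0.05. These values do not show a pairing by number beyond the shared slide.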

Additional observations from a re-analysis of the deposited data

Results flagged for a closer look

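In 84 groups of 4 hearts examined for single hearts far from the rest, 5 held one by Dixon's ratio of the gap to the range, where chance gives about 1 in 20. Fasted replicate 3 stood apart for Grk5, where it was the highest (ratio 0.940), and for Cd93 (0.839), Calcrl (0.882) and Tafa3 (0.875), where it was the lowest. Fasted replicate 2 was the lowest for Nppb (0.922). No probe of Apln or Aplnr had such a heart. The cause was not tested.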

How the results depend on the processing

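Apln and Aplnr kept their direction under every alternative run. Their log2 differences moved by more than the spread between replicates with normexp background correction, to -2.40 for Apln and -2.38 for Aplnr, and when the kept probes were averaged, to -4.08 and -1.94; leaving out 1 heart gave -3.04 to -2.71 and -3.39 to -3.07. The number of genes and probes called, 4073 of 20203, was 2225 of 32701 without the filter on dim probes. It was 7177 with slide as a block, 6486 with the replicate block, 1883 on slide 1 alone and 1 on slide 2 alone. With 1 heart left out it was 2495 to 3690. The 13 pathway genes that rose became 6 without that filter, 21 with the replicate block, 2 on slide 1, 0 on slide 2 and 7 to 11 with 1 heart left out. The 15 that fell became 6 on slide 1, 0 on slide 2 and 11 to 15 with 1 heart left out. On slide 2 alone limma gave 16 higher and 15 lower pathway genes, of 100 tested, at an unadjusted p under 0.05. Among all 20203 genes and probes tested there, 5333 had such a p, so nothing is read from these pathway counts. Of 42 called list genes, 18 lost the call in at least 1 of the 8 fits with a heart left out, and the replicate block ended 0 of these calls. The cause of these shifts was not tested; slides and left-out hearts have fewer samples.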
